A study of Mus musculus with 27 samples.

Results

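The 36 genes described here serve the secretory pathway and the unfolded protein response, and they were followed through pregnancy in laser-microdissected mouse liver. They were taken as a list of gene symbols with no threshold on their values, and the list was drawn up with earlier results of these data known. The list held 5 chaperones of the endoplasmic reticulum (ER) and 4 of their co-chaperones, 4 disulfide isomerases, 2 stress-induced secreted factors, 3 stress sensors, 3 transcription factors, 3 targets of the integrated stress response, 8 genes of ER-associated degradation, 2 translocon subunits and 2 subunits of the COPII coat. All 36 symbols were found, in 37 of the 21823 gene entries of the table, and 36 of those entries were among the 12952 that were tested, which had at least 1 FPKM (fragments per kilobase of transcript, scaled to the mapped reads of the library) in at least 3 libraries. The entry left out was a further one for Ddit3, which overlaps the first.

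The liver came from adult female wild-type C57BL/6 mice (C57BL/6N in the study's methods) that were not pregnant (NP) or were killed on day 8 (dpc8) or day 16 (dpc16) post coitum. No group carried a transgene or received a drug. From frozen sections, areas of 2 mm2 were cut from zone 1 around the portal vein, zone 3 around the central vein and zone 2 between them, and RNA depleted of ribosomal RNA was sequenced, with 3 libraries in each of the 9 groups of stage and zone and so 9 libraries per stage. The sources do not state whether the 3 zones that share a replicate number came from 1 mouse, so p-values measure the spread between libraries. A dissected area holds every cell type of that part of the lobule, and in such bulk RNA fewer cells of a type and less RNA per cell cannot be told apart.

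Hepatocytes make most of the proteins of blood plasma, and nearly all of these enter the ER as they are made, through the Sec61 channel. Inside the ER, chaperones such as BiP hold the chains while they fold, isomerases form their disulfide bonds, and chains that fail to fold are pulled back out and destroyed. When unfolded chains collect, the sensors IRE1, PERK and ATF6 start the unfolded protein response: IRE1 splices the mRNA of Xbp1, ATF6 is cut to release a transcription factor, and PERK slows translation while letting ATF4 be made. XBP1 and ATF6 then raise the genes of folding, degradation and export, in part through short promoter motifs called ER stress response elements (ERSE), whereas ATF4 raises genes of amino acid supply and, through CHOP (encoded by Ddit3), of cell death.

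The zone labels went with their markers: the summed FPKM of 10 periportal genes lay between 4.52e+03 and 9.58e+03 in zone 1 and between 297 and 2.75e+03 in zone 3, and that of 10 pericentral genes between 243 and 466 in zone 1 and between 6.85e+03 and 1.83e+04 in zone 3. Of 8 hepatocyte markers listed, 7 were found among the gene entries, and none of these was at 0 in all libraries of a stage. The depth behind each library, estimated from the steps between low FPKM values, was 7.46 to 32.8 M reads (M for 1e+06), so that 1 read on a transcript of 1 kilobase was worth 0.0305 to 0.134 FPKM. The sum of FPKM per library was 499866 to 704327 at NP, 510108 to 650820 at dpc8 and 523854 to 988500 at dpc16, and albumin took 3.71 to 12%, 4.2 to 10.7% and 7.98 to 21% of it. In 6 libraries, 2 per stage, the summed FPKM of 4 Y-linked genes was 7.92 to 23.2 although the label was female, against at most 2.97 in the other 21. These were replicate 1 of NP zone 1, replicate 2 of NP zone 3, replicate 1 of dpc8 zone 1, replicate 2 of dpc8 zone 2 and replicate 3 of dpc16 zone 2 and of dpc16 zone 3. They also had the highest mean level of connective tissue markers. The counts of members called at dpc16 over the other stages are given with and without them, as are the values of some members.

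Where the members carry ERSE letters was read first, because the genes holding them recur in the results below. RefSeq promoter windows on GRCm38.p6, the assembly also known as mm10, were at hand for 31 of the 36 members (33 windows, each 250 bases before to 50 after an annotated start). Hyou1, Manf, Atf6, Derl1 and Sec61a1 had none. Both strands were searched for the ERSE, CCAAT then 9 bases of any kind then CCACG, and for ERSE-II, ATTGG then 1 base then CCACG. No window held both. The ERSE letters were in the windows of 9 of 31 members (29%), against 37 of 27025 gene symbols with a window (0.137%), and the ERSE-II letters were in those of 2 of 31 (6.45%), against 0.0444%. The members were chosen as genes of this response and are themselves among the 27025, so the contrast is not a test.

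The sites are shown because they are the sequence that these members share, with 5 flanking bases a side, 5′ to 3′ on the strand that reads the motif forward. Capitals mark the fixed letters of the motif, and the strand in the coordinates is that of the printed sequence.
Hspa5, chr2:34772020-34772048, plus strand: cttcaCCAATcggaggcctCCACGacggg
Hsp90b1, chr10:86705633-86705661, minus strand: caagcCCAATcgcaaggagCCACGcttcg
Hsp90b1, chr10:86705528-86705556, plus strand: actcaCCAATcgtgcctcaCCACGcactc
Calr, chr8:84847070-84847098, plus strand: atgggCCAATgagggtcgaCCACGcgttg
Canx, chr11:50325795-50325823, minus strand: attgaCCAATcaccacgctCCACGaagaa
Dnajc3, chr14:118937822-118937850, plus strand: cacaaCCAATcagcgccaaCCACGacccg
Pdia6, chr12:17266486-17266514, plus strand: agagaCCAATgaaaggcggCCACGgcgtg
Creld2, chr15:88819515-88819543, minus strand: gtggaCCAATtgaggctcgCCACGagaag
Syvn1, chr19:6046527-6046555, plus strand: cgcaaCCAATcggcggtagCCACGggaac
Derl3, chr10:75893237-75893265, minus strand: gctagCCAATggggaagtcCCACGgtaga
Dnajb11 (ERSE-II), chr16:22857847-22857867, plus strand: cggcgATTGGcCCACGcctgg
Herpud1 (ERSE-II), chr8:94386372-94386392, plus strand: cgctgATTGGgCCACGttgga

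The sites lay at different distances from the start given by RefSeq, which is counted as 1, with -1 the base before it. Among the ERSE sites, that of Syvn1 was nearest, at -44 to -26, followed by that of Hspa5 at -65 to -47, while the farther of the pair of Hsp90b1 was at -212 to -194. The ERSE-II of Herpud1 was at -52 to -42, and that of Dnajb11 was just after the start, at 8 to 18. The 150 bases before the start of Syvn1 and of Creld2, which are among the members with the largest differences between stages, show the setting of such a site. In Creld2 the motif is read on the strand opposite to the gene, so on the gene's strand its letters appear reversed and complemented, as CGTGG and ATTGG.
Syvn1, chr19:6046426-6046575, plus strand: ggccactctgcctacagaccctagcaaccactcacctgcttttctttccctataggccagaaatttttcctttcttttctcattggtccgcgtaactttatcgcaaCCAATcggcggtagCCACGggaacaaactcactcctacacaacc
Creld2, chr15:88819496-88819645, plus strand: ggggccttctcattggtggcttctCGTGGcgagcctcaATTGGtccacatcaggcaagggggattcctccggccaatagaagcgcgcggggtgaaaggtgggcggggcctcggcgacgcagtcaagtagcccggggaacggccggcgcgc

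The members ranged widely in level, with folding enzymes at the upper end. P4hb, an isomerase, had the highest mean over the 27 libraries, 1091 FPKM, above 99.5% of the genes tested. Hsp90b1 at 548 FPKM, Calr at 476 FPKM and Hspa5 at 459 FPKM came next, and their ranges over the libraries overlapped. Derl3 and Chac1 were the lowest, with means of 3.00 and 2.51 FPKM. Together the members made up 0.481 to 0.829% of the FPKM sum at NP, 0.471 to 0.769% at dpc8 and 0.703 to 1.11% at dpc16.

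**Figure D1:**
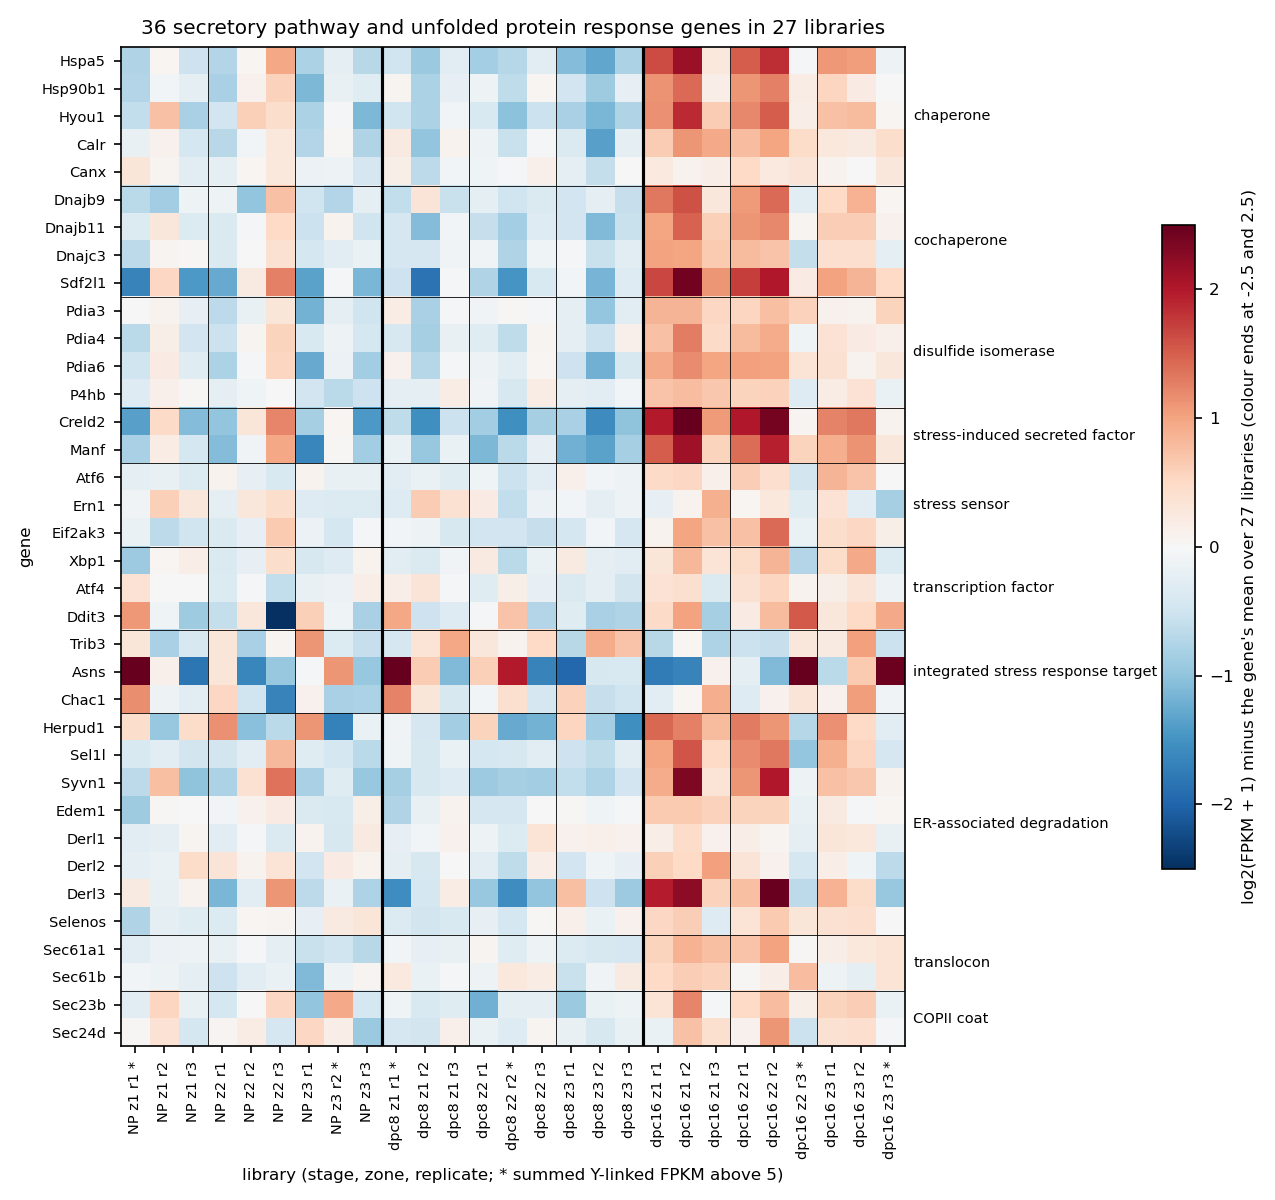
Level of each of the 36 members (rows, grouped by role) in each of the 27 libraries (columns, by stage and zone), as log2(FPKM + 1) minus the member's own mean over all libraries. The chaperone, isomerase and secreted factor rows were above their means in most dpc16 libraries. For 25 of the 36 members the lowest dpc16 value was in replicate 3 of zone 2 or of zone 3, which are among the 6 libraries with Y-linked reads, marked with an asterisk, while Calr, Canx, Pdia3 and Pdia6 were lowest in replicate 2 of zone 3.

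Between NP and dpc16 most of the listed chaperones, co-chaperones and isomerases rose, and they did so between dpc8 and dpc16 as well. Averaged over the zones, 22 of the 36 members were higher at dpc16 than at NP and none was lower (limma on log2(FPKM + 1), Benjamini-Hochberg adjusted p under 0.05), where 5.65% of all genes tested were higher. Against dpc8, 24 members were higher and none was lower, where 5.37% of all genes were higher. The median log2 difference of the members was 0.749 against NP and 0.777 against dpc8, while that of all genes was -0.0101 and -0.00803. Both comparisons use the same dpc16 libraries, and 21 members were called in both. Called were 4 of 5 chaperones, all 4 co-chaperones, all 4 isomerases, both secreted factors and 2 of 3 sensors in each, and none of the 3 transcription factors or 3 integrated stress response targets in either.

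The counts moved with the scaling, the pairing and the libraries used. When every library was rescaled to the same FPKM sum, the median of all genes moved to -0.325 against NP and -0.376 against dpc8, the members called higher fell to 10 and 15, and 268 of 3249 calls among all genes were then higher against NP and 246 of 3641 against dpc8, in place of 732 higher and 797 lower against NP and 695 higher and 737 lower against dpc8. The members' median stood 0.71 and 0.728 above that of all genes, against 0.759 and 0.785 before rescaling. With a replicate block, that is, with a shared correlation for the libraries of 1 stage and number, 16 and 19 members were called, where 3.35% and 3.15% of all genes were higher. Without the 6 libraries with Y-linked reads, 25 and 28 were called, where 1106 and 1227 genes in all were higher. Members given below as called or not called are so in the fit of all libraries, unless another setting is named. With only the groups compared in the fit, Dnajc3, Atf6, Sel1l, Syvn1, Edem1 and Selenos were not called over NP, nor P4hb over dpc8.

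**Figure D2:**
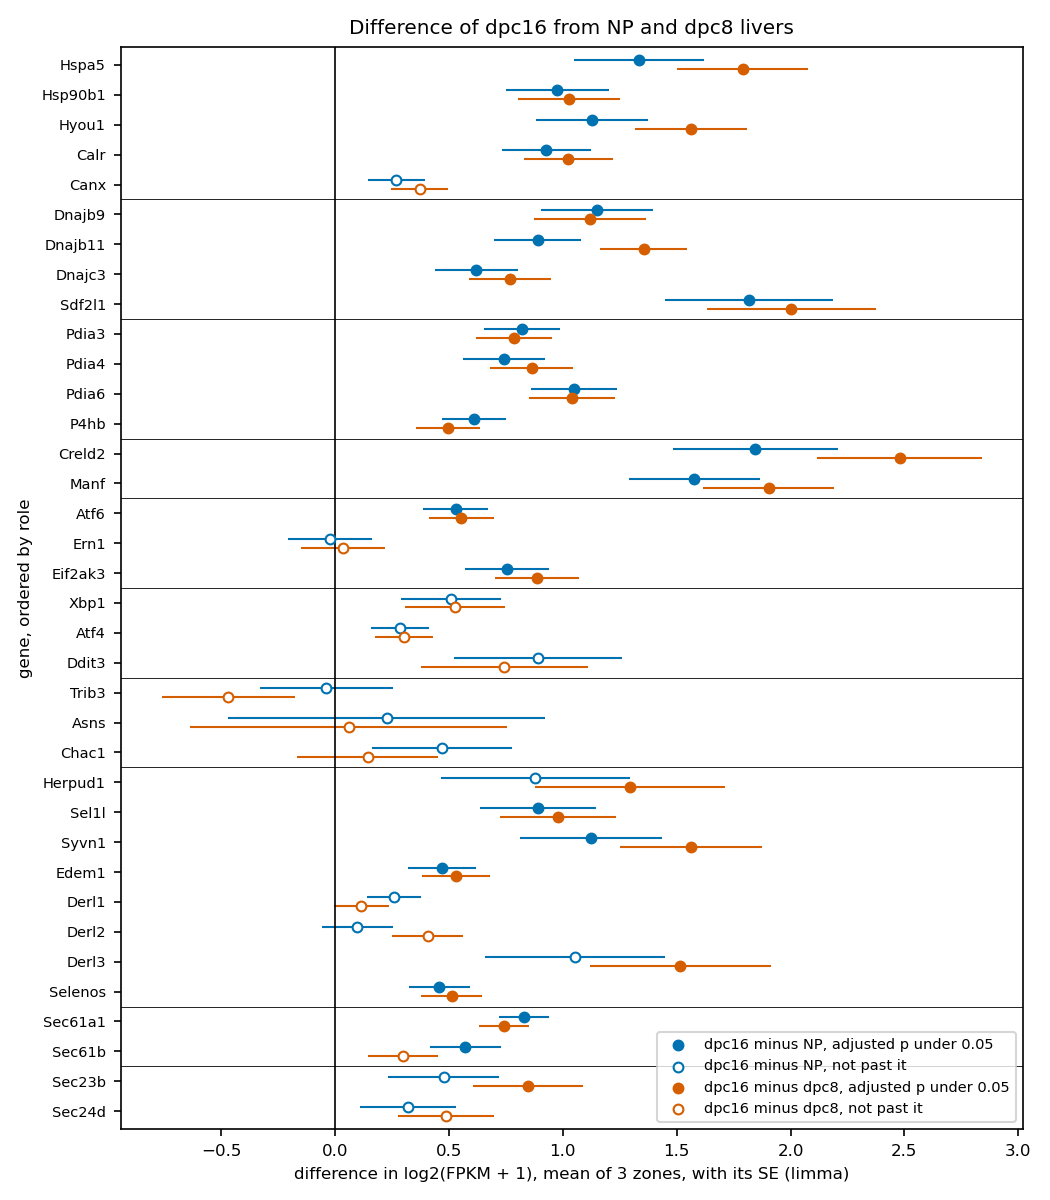
Log2 difference in FPKM + 1 of each member (rows, by role) at dpc16 against NP (blue) and against dpc8 (orange), averaged over the 3 zones, with its standard error. Filled points have an adjusted p under 0.05. Creld2, Sdf2l1 and Manf lie farthest to the right in both comparisons, and Ern1 and Trib3 lie nearest 0 against NP.

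Of the 5 chaperones, 4 rose in both comparisons, and Hspa5 rose most. Hspa5 (chr2:34771970-34777547), which encodes BiP, the Hsp70 chaperone of the ER that also holds the stress sensors in check, ranged from 207 to 696 FPKM with a median of 250 at NP, from 144 to 296 with a median of 206 at dpc8 and from 326 to 1599.9 with a median of 756 at dpc16. All 9 dpc16 libraries lay above all 9 dpc8 libraries, while 3 NP libraries, replicate 2 of zone 1 and replicates 2 and 3 of zone 2, reached into the dpc16 range. The log2 difference of Hspa5 was 1.33 ± 0.29 (SE) against NP (limma adjusted p = 0.003216) and 1.79 ± 0.29 against dpc8 (limma adjusted p = 0.0002058), or 2.52-fold and 3.46-fold. Hyou1 (chr9:44379490-44392369), a large Hsp70 relative that exchanges the nucleotide of BiP, ranged from 37.9 to 139.5 FPKM (median 59.5) at NP, 37.2 to 79.5 (median 49.5) at dpc8 and 86.3 to 306 (median 146) at dpc16. Its dpc16 libraries also stood clear of dpc8 and overlapped NP, with log2 differences of 1.13 ± 0.25 (limma adjusted p = 0.003601) and 1.56 ± 0.25 (limma adjusted p = 0.000173).

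Hsp90b1, the Hsp90 of the ER and the most abundant chaperone of the list, ranged from 225 to 730 FPKM (median 414) at NP, 263 to 512 (median 425) at dpc8 and 496 to 1311 (median 711) at dpc16, and the stages overlapped. Calr, a lectin that binds sugar-bearing chains, ranged from 259 to 527 FPKM (median 381) at NP, 170 to 507 (median 372) at dpc8 and 513 to 945 (median 683) at dpc16, where the lowest dpc16 library was just above the highest of dpc8. The log2 difference against NP was 0.98 ± 0.22 for Hsp90b1 and 0.93 ± 0.19 for Calr, and both were called (limma adjusted p = 0.005517 and 0.002719), Calr no longer so after rescaling. Canx, the membrane-bound partner of Calr and a holder of an ERSE, was the exception, at 137 to 228 FPKM (median 168) at NP and 184 to 259 (median 217) at dpc16. Its log2 differences of 0.27 ± 0.13 against NP and 0.37 ± 0.13 against dpc8 were not called (limma adjusted p = 0.1888 and 0.05954). Without the 6 libraries the difference against dpc8 was 0.40 with a limma adjusted p of 0.0377.

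All 4 co-chaperones rose in both comparisons, Sdf2l1 by the most. With the replicate block, the Dnajc3 call over NP was lost (limma adjusted p = 0.0652). Sdf2l1 (chr16:17130138-17132383), which keeps BiP with its clients, ranged from 6.53 to 56.3 FPKM (median 9.8) at NP, 5.63 to 22.1 (median 15.7) at dpc8 and 26.5 to 127 (median 50.4) at dpc16. All dpc16 values lay above all dpc8 values, and 3 of the 9 NP libraries, replicate 2 of zone 1 and replicates 2 and 3 of zone 2, lay above the lowest dpc16 value. Its log2 differences were 1.82 ± 0.37 against NP and 2.00 ± 0.37 against dpc8 (limma adjusted p = 0.002088 and 0.0009492), 3.53-fold and 4.01-fold.

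Dnajb11 (chr16:22857845-22879634), a J-domain partner that delivers chains to BiP and the holder of an ERSE-II, ranged from 39.2 to 81.0 FPKM (median 45.2) at NP, 26.3 to 54.8 (median 38.6) at dpc8 and 59.9 to 160.1 (median 88.8) at dpc16. It stood clear of dpc8 in all 9 libraries, and the difference of 1.36 ± 0.19 had the lowest adjusted p of any member in that comparison (limma adjusted p = 5.679e-05), against 0.89 ± 0.19 over NP. Dnajb9, a J-domain protein that draws BiP onto IRE1, had medians of 16.1, 16.2 and 42.8 FPKM at NP, dpc8 and dpc16, with log2 differences of 1.15 ± 0.24 and 1.12 ± 0.24. Dnajc3 (chr14:118937976-118981697), also known for holding PERK in check and the co-chaperone of the highest level, ranged from 40.2 to 84.1 FPKM (median 57.5) at NP, 37.7 to 62.9 (median 52.5) at dpc8 and 42.4 to 131 (median 102) at dpc16. It rose least of the group, by 0.62 ± 0.18 over NP (limma adjusted p = 0.02745) and 0.77 ± 0.18 over dpc8. The call over NP was also lost after rescaling, and without replicate 1 of any NP zone or replicate 1 or 2 of any dpc16 zone.

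All 4 disulfide isomerases rose in both comparisons, with a median log2 difference over NP of 0.781, against 0.976 for the chaperones and 1.02 for the co-chaperones. With the replicate block, the P4hb call over dpc8 was lost (limma adjusted p = 0.0668). Pdia6 (chr12:17266545-17284770), which also acts on the luminal side of the sensors, ranged from 43.9 to 154 FPKM (median 85.3) at NP, 45.6 to 115 (median 88.2) at dpc8 and 113 to 243 (median 206) at dpc16. The lowest dpc16 library lay just below the highest dpc8 library, and the log2 differences were 1.05 ± 0.19 and 1.04 ± 0.19 (limma adjusted p = 0.0006214 and 0.0007516). Pdia4 (chr6:47796141-47813430), an isomerase with an extra thioredoxin domain, ranged from 80.7 to 191 FPKM (median 99.8) at NP, 72.1 to 142 (median 104) at dpc8 and 121 to 317 (median 182) at dpc16, with overlap throughout. Its log2 differences were 0.74 ± 0.18 and 0.86 ± 0.18 (limma adjusted p = 0.00857 and 0.003009), and the one over NP was not called after rescaling.

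Pdia3, which pairs with Calr and Canx on glycoproteins, had medians of 154, 168 and 259.97 FPKM at NP, dpc8 and dpc16, and differed by 0.82 ± 0.17 and 0.79 ± 0.17. P4hb, protein disulfide isomerase itself, ranged from 659 to 1143 FPKM (median 890) at NP, 791 to 1199.8 (median 902) at dpc8 and 836 to 1784 (median 1540.1) at dpc16. The most abundant member thus rose by 0.61 ± 0.14 over NP and by 0.50 ± 0.14 over dpc8 (limma adjusted p = 0.005509 and 0.02336). The P4hb call over dpc8 was also lost after quantile normalization, and without replicate 2 of dpc8 zone 1, of dpc16 zone 2 or of dpc16 zone 3. After rescaling, neither Pdia3 nor P4hb was called in either comparison.

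The pair of secreted stress factors included the largest difference of the list. Creld2 (chr15:88819646-88826683), a small ER-resident protein released under stress, ranged from 10.3 to 69.7 FPKM (median 16.2) at NP, 9.24 to 20.1 (median 15.7) at dpc8 and 30.7 to 214 (median 74.7) at dpc16. Every dpc16 library lay above every dpc8 library, while NP had 3 libraries above the lowest dpc16 value. Its log2 differences were 1.84 ± 0.36 over NP and 2.48 ± 0.36 over dpc8 (limma adjusted p = 0.001501 and 7.988e-05), or 3.59-fold and 5.57-fold. Manf (chr9:106838312-106891979), which binds BiP and is secreted when ER calcium falls, ranged from 35.3 to 220 FPKM (median 82.2) at NP, 43.5 to 99.8 (median 62.4) at dpc8 and 136 to 492 (median 246) at dpc16. It too stood clear of dpc8, with log2 differences of 1.58 ± 0.29 and 1.90 ± 0.29 (limma adjusted p = 0.0007178 and 0.0001063). Both genes were called under every one of the 10 alternatives tried, in both comparisons.

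**Figure D3:**
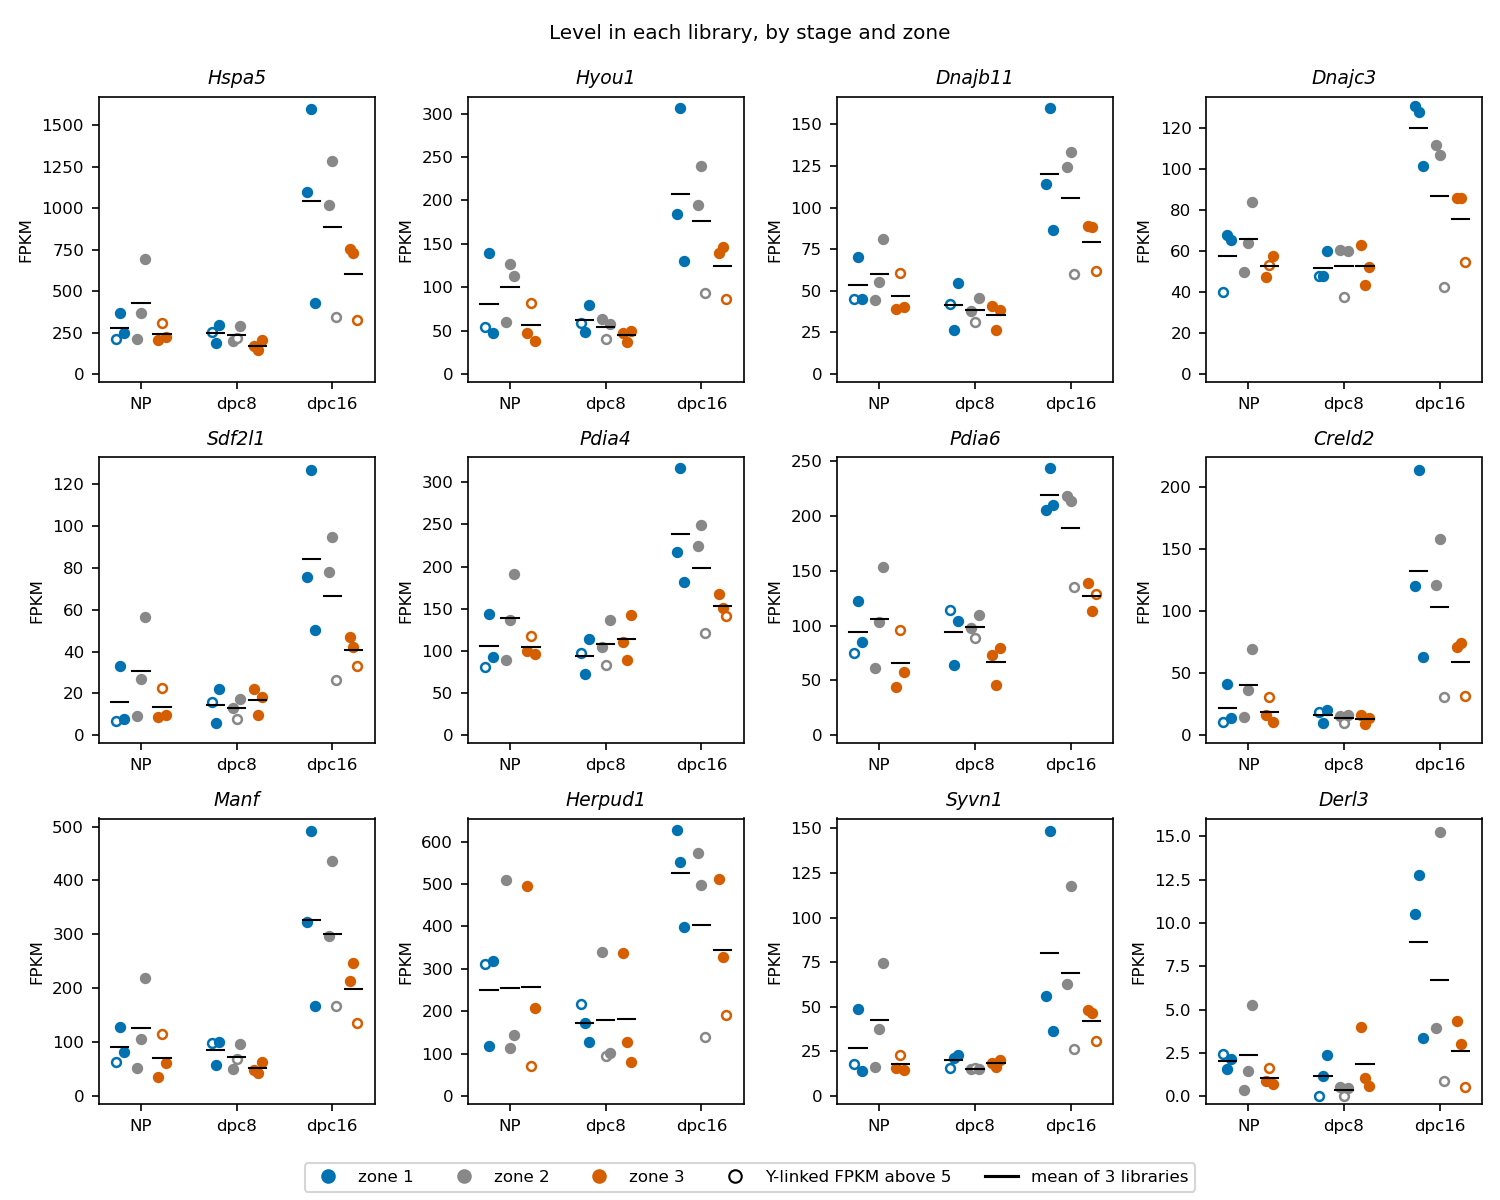
FPKM in each of the 27 libraries, on linear axes, of the 12 members with the largest differences among those called, by stage and zone. Hollow points are the 6 libraries with Y-linked reads and bars are means of 3. The dpc16 points of Hspa5, Hyou1, Dnajb11, Sdf2l1, Creld2, Manf and Syvn1 lie above all dpc8 points, and 1 or more NP points of each reach into the dpc16 range.

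Of the 3 sensors, the genes of PERK and ATF6 were higher at dpc16 and that of IRE1 was not called. Eif2ak3, which encodes PERK, ranged from 4.16 to 11.8 FPKM (median 6.08) at NP, 4.44 to 6.81 (median 5.14) at dpc8 and 6.26 to 20.7 (median 10.7) at dpc16, and differed by 0.76 ± 0.18 and 0.89 ± 0.18 (limma adjusted p = 0.008544 and 0.002813). Atf6, the most abundant of the 3, ranged from 14 to 19.9 FPKM (median 16.3) at NP, 12.4 to 20.50 (median 16.4) at dpc8 and 13.3 to 34.3 (median 26.1) at dpc16. Its stages overlapped, and it differed by 0.53 ± 0.14 and 0.55 ± 0.14 (limma adjusted p = 0.01663 and 0.01295). Ern1, which encodes IRE1, had medians of 13.2, 12.9 and 14.7 FPKM and log2 differences of -0.02 ± 0.18 and 0.04 ± 0.18 (limma adjusted p = 0.9617 and 0.9525). After rescaling, Atf6 was called in neither comparison and Eif2ak3 was not called over NP.

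The transcription factors were not called in the fit of all libraries. Xbp1, the factor made from the mRNA that IRE1 splices and the most abundant of the 3, ranged from 53.8 to 139 FPKM (median 88.7) at NP, 64.2 to 120 (median 85.8) at dpc8 and 60.9 to 197 (median 140) at dpc16. Its 2 lowest dpc16 values, 60.9 and 80.5 FPKM, were in the 2 dpc16 libraries with Y-linked reads, and the other 7 lay between 127 and 197 FPKM. The log2 differences of Xbp1 were 0.51 ± 0.22 and 0.53 ± 0.22 with all libraries (limma adjusted p = 0.1501 and 0.1346) and 0.65 and 0.71 without those 6 (limma adjusted p = 0.00976 and 0.0047). Gene-level FPKM do not separate spliced from unspliced Xbp1 mRNA.

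Atf4, whose protein level is set mainly by translation, had medians of 49.6, 44.4 and 64.6 FPKM and log2 differences of 0.29 ± 0.13 and 0.30 ± 0.13, not called with all libraries (limma adjusted p = 0.1649 and 0.1418). Without the 6 it was called over dpc8 (0.43, limma adjusted p = 0.0352) and not over NP (0.40, limma adjusted p = 0.0564). Ddit3, which encodes CHOP, ranged from 0.343 to 15.7 FPKM (median 6.32) at NP, 3.53 to 14.54 (median 5.33) at dpc8 and 3.43 to 22.03 (median 10.1) at dpc16, and its differences of 0.89 ± 0.37 and 0.74 ± 0.37 were not called (limma adjusted p = 0.1293 and 0.2227). The values of Ddit3 are uncertain because a second annotated entry overlaps it on the same strand. That entry was at 0 in every NP library and above 0 in 2 of the other libraries, at 23.2 FPKM in 1 dpc8 library and 2.68 FPKM in replicate 2 of dpc16 zone 3.

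None of the 3 members that are targets of the integrated stress response was called in either comparison. Asns, asparagine synthetase and a target of ATF4, ranged from 0.105 to 23.4 FPKM (median 2.8) at NP, 0 to 22.95 (median 1.97) at dpc8 and 0.16 to 31.5 (median 2.31) at dpc16. The 6 libraries with Y-linked reads held its 6 highest values, from 7.36 to 31.5 FPKM, and the other 21 were between 0 and 5.14 FPKM. The part that the tissue makeup of those libraries has in this was not tested. The log2 differences of Asns were 0.23 ± 0.70 and 0.06 ± 0.70 with them and 0.11 and -0.03 without them, none of them called.

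Trib3, a pseudokinase that ATF4 and CHOP raise, had medians of 3.4, 6.09 and 2.84 FPKM, and Chac1, which degrades glutathione, had medians of 1.64, 2.05 and 2.41 FPKM. Their log2 differences were between -0.47 and 0.47 and none was called with all libraries. After rescaling, Trib3 differed by -0.88 from dpc8 (limma adjusted p = 0.0493), where the median of all genes was -0.376.

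**Figure D4:**
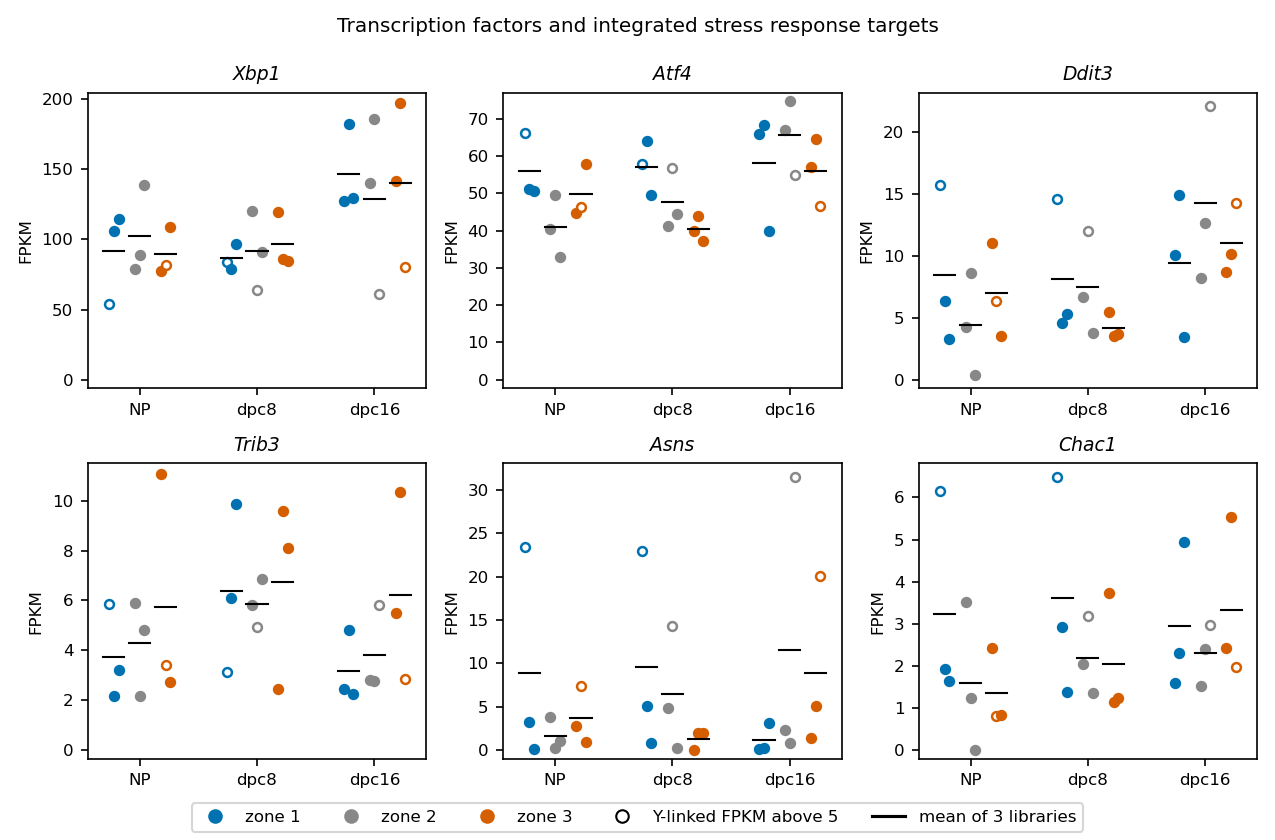
FPKM in each of the 27 libraries, on linear axes, of the 3 transcription factors Xbp1, Atf4 and Ddit3 and the 3 integrated stress response targets Trib3, Asns and Chac1, by stage and zone. The hollow points, the 6 libraries with Y-linked reads, are the highest for Asns, and the 2 at dpc16 are the lowest of their stage for Xbp1.

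Of the 8 genes of ER-associated degradation, 4 were called higher over NP and 6 over dpc8, where 5.65% and 5.37% of all genes were higher. With the replicate block the 4 calls over NP were lost, as were those of Herpud1, Edem1 and Derl3 over dpc8. Syvn1 (chr19:6046576-6053712), which encodes the ligase HRD1, ranged from 13.9 to 74.8 FPKM (median 17.8) at NP, 14.9 to 23.0 (median 16.4) at dpc8 and 26.4 to 149 (median 48.4) at dpc16, clear of dpc8 in all 9 libraries. Its log2 differences were 1.12 ± 0.31 and 1.56 ± 0.31 (limma adjusted p = 0.01989 and 0.001848), and the first was lost without replicate 2 of dpc16 zone 1, after rescaling, and with the block (limma adjusted p = 0.0605). Sel1l, the adaptor of HRD1, ranged from 34.7 to 97.9 FPKM (median 42.3) at NP, 35.6 to 51.9 (median 42.2) at dpc8 and 28.1 to 168 (median 104) at dpc16, with overlap of all stages. It differed by 0.89 ± 0.26 and 0.98 ± 0.26 (limma adjusted p = 0.02401 and 0.01412). The call over NP did not survive the block (limma adjusted p = 0.0633), rescaling, or leaving out replicate 1 of NP zone 2, replicate 2 of dpc16 zone 1, replicate 1 or 2 of dpc16 zone 2, or replicate 1 of dpc16 zone 3, and the one over dpc8 did not survive rescaling.

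Herpud1 (chr8:94386438-94395377), a membrane protein that gathers the ligase complex and the most abundant gene of the group, spread widely within each stage, from 70.9 to 509 FPKM (median 207) at NP, 79.4 to 340 (median 127) at dpc8 and 140 to 627 (median 497) at dpc16. Its differences were 0.88 ± 0.42 over NP, not called (limma adjusted p = 0.1989), and 1.29 ± 0.42 over dpc8 (limma adjusted p = 0.0474). That call was lost with the block (limma adjusted p = 0.0879), after rescaling or quantile normalization, with no filter on low values, and without any one of the libraries numbered 2 or 3 at dpc8 or 1 or 2 at dpc16. Derl3 (chr10:75893413-75895941), a derlin that forms part of the exit channel, was near the floor, from 0.336 to 5.26 FPKM (median 1.58) at NP, 0 to 3.96 (median 0.556) at dpc8 and 0.511 to 15.3 (median 3.91) at dpc16. Its difference was 1.05 ± 0.40 over NP, not called, and 1.52 ± 0.40 over dpc8 (limma adjusted p = 0.01421), a size that depends on the 1 added to each value and a call that was lost with the block (limma adjusted p = 0.0505). Without the 6 libraries both were called, at 1.57 and 1.72 (limma adjusted p = 0.00961 and 0.00484).

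Derl1 and Derl2, the derlins of higher level, had log2 differences between 0.10 and 0.41 and were not called. After rescaling, the sign of Derl1 against dpc8 turned, from 0.12 to -0.33 (limma adjusted p = 0.0216), where the median of all genes was -0.376. Edem1, which picks out glycoproteins for degradation, had medians of 114, 106 and 167 FPKM and was called in both comparisons (0.47 ± 0.15 and 0.53 ± 0.15). The Edem1 call over NP was lost with the block (limma adjusted p = 0.117), after rescaling and without any dpc16 library other than replicate 3 of zone 2, or without replicate 1 of NP zone 1 or replicate 1 or 2 of NP zone 2 or 3, and the call over dpc8 was lost with the block, after rescaling and without replicate 2 of dpc16 zone 2. Selenos, a selenoprotein of the exit complex, had medians of 36.1, 36.3 and 54.3 FPKM and was called in both (0.46 ± 0.13 and 0.51 ± 0.13). The call of Selenos over NP was lost with the block (limma adjusted p = 0.0652), after rescaling, and without replicate 1 of any NP zone, replicate 1 or 2 of dpc16 zone 1 or zone 3, or replicate 2 of dpc16 zone 2, and the one over dpc8 was lost after rescaling.

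The subunits of the channel through which chains enter the ER were both called over NP, and 1 of them over dpc8. Sec61a1 (chr6:88503579-88518905), the pore of the translocon, ranged from 51.6 to 81.1 FPKM (median 72.04) at NP, 62.9 to 88.6 (median 72.4) at dpc8 and 86.2 to 169.9 (median 124) at dpc16. It was the only one of the 36 members whose 9 dpc16 libraries all lay above all 9 NP libraries, which held for 0.818% of all genes tested. Its log2 differences were 0.83 ± 0.11 and 0.74 ± 0.11 (limma adjusted p = 2.08e-05 and 9.369e-05), 1.78-fold and 1.67-fold, and the one over dpc8 was not called after rescaling. Sec61b, the small subunit beside the pore, had medians of 67.1, 73.5 and 95.6 FPKM and was called over NP (0.57 ± 0.15, limma adjusted p = 0.01685), though not with the block (limma adjusted p = 0.0643) or after rescaling, and was not called over dpc8 (0.30 ± 0.15).

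Against dpc8, 8 of the 36 members stood clear in all 9 libraries, namely Hspa5, Hyou1, Calr, Dnajb11, Sdf2l1, Creld2, Manf and Syvn1, where 0.896% of all genes did. Of the 2 subunits of the COPII coat, which buds cargo from the ER, Sec23b was called over dpc8 (0.85 ± 0.24, limma adjusted p = 0.02549) and not over NP (0.48 ± 0.24). The Sec23b call was lost with the block (limma adjusted p = 0.0709), after rescaling, and without replicate 1 of dpc8 zone 2 or zone 3, replicate 2 of any dpc16 zone or replicate 1 of dpc16 zone 3. Sec24d, the cargo-binding subunit of higher level, ranged from 22.3 to 62.4 FPKM (median 45.3) at NP, 31.2 to 47.1 (median 37.8) at dpc8 and 29.6 to 94.6 (median 56.7) at dpc16 and was called in neither comparison.

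Members with the ERSE or ERSE-II letters printed above can be set beside those without. Of the 11 with either motif, 8 were called over NP and 10 over dpc8, where 5.65% and 5.37% of all genes were higher, with median log2 differences of 0.976 and 1.295. With the replicate block, Dnajc3 and Syvn1 over NP and Herpud1 and Derl3 over dpc8 were lost among these 11. Among the 20 whose window held neither, 10 were called in each comparison, with medians of 0.492 and 0.520. There the block lost Sel1l, Edem1, Selenos and Sec61b over NP and P4hb, Edem1 and Sec23b over dpc8. Of the 5 members with no window, 4 were called in each. The members without the letters include Sdf2l1, at 1.82 over NP beside 1.84 for Creld2, which has them. The difference between the counts was not tested.

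Within dpc16 the height of the members moved with the replicate number. The lowest dpc16 value was in a library numbered 3 for 29 of the 36 members, and for 25 of them in zone 2 or zone 3, where the number 3 libraries are those with Y-linked reads. The highest dpc16 value was in a library numbered 2 for 26 of the 37 entries with a member symbol, among them the further entry for Ddit3. Replicate 2 of dpc16 zone 1 held the highest value of 16 members and was also the shallowest library, at 7.46 M reads, and replicate 3 of dpc16 zone 2 held the lowest dpc16 value of 17 and was the deepest, at 32.8 M reads. These 2 libraries differed in albumin too, at 17.7% and 7.98% of the FPKM sum. The parts of depth and of tissue makeup in this were not tested. At NP, replicate 3 of zone 2 had the highest mean level of the members.

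Other cells that make much secreted protein were looked for by their markers. The summed FPKM of 7 plasma cell genes was 66.6 to 258 at NP, 80.4 to 147 at dpc8 and 65.2 to 261 at dpc16, with medians of 134, 97.3 and 202 and with Tnfrsf17 at 0 in all 27 libraries. Of 6 genes of the exocrine pancreas, Cel, Pnlip and Prss2 were at 0 in all 27, and the list summed to 3.97 to 41.9 FPKM at NP, 4.67 to 80 at dpc8 and 6.01 to 13.1 at dpc16. The hepatocyte list, of 7 genes, summed to 3.89e+04 to 1.09e+05 FPKM (median 6.3e+04) at NP, 4.05e+04 to 7.28e+04 (median 4.15e+04) at dpc8 and 5.28e+04 to 2.44e+05 (median 1.91e+05) at dpc16. The Kupffer cell list, of 6 genes, summed to 64 to 300 FPKM (median 129) at NP, 81.9 to 205 (median 119) at dpc8 and 24.5 to 161 (median 78.3) at dpc16. The biliary epithelium list, of 6 genes, summed to 0.0884 to 159 FPKM (median 25), 0.447 to 129 (median 10.6) and 0.204 to 91.6 (median 40.2). The sinusoidal endothelium list, of 6 genes, summed to 65.3 to 150 FPKM (median 117), 60.6 to 143 (median 71) and 49.4 to 139 (median 112). The parts of these in the members' values were not tested. The connective tissue list, of 12 genes, summed to 106 to 2.74e+03 FPKM at NP, 84.8 to 4.47e+03 at dpc8 and 91 to 4.43e+03 at dpc16, and with its level as a covariate 24 members were called over NP and 25 over dpc8, where 1346 and 1187 genes in all were higher, against 732 and 695 without the covariate.

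In single zones, with 3 libraries a side, fewer members passed although their medians were similar. In zone 1, 3 members were higher at dpc16 than at NP, Creld2 (2.61 ± 0.63), Sdf2l1 (2.59 ± 0.64) and Sec61a1 (0.91 ± 0.19), where 0.996% of all genes were higher. In zones 2 and 3 only Sec61a1 was called, at 0.74 and 0.84, where 1.02% and 0.749% of all genes were higher. The median log2 difference of the members was 0.908, 0.655 and 0.680 in zones 1, 2 and 3. Creld2 in zone 1 was 10.9, 41.2 and 13.4 FPKM at NP, 18.5, 9.46 and 20.1 FPKM at dpc8 and 119.9, 214 and 62.7 FPKM at dpc16, so that no dpc16 value overlapped the other stages. With a fixed effect for the replicate number, shared across stages, the zone 1 call of Sdf2l1 was lost (limma adjusted p = 0.05111). Libraries of different stages come from different mice, so that fit does not show the effect of pairing by animal. The Sdf2l1 call stood under 3 of the 10 alternative settings. The zone 1 count was 0 without replicate 1 of NP or replicate 2 of dpc16, 1 without replicate 3 of NP or replicate 1 of dpc16, and 7 without replicate 3 of dpc16. Genes higher in all numbered 64 and 71, 99 and 67, and 112 in these fits, against 129 with all libraries. In zone 2 the call of Sec61a1 stood only without replicate 3 of dpc16, and in zone 3 it was lost without any 1 of the 6 libraries.

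Against dpc8, 9 members were called in zone 1, where 1.27% of all genes were higher. They were Creld2 (2.86 ± 0.63), Sdf2l1 (2.54 ± 0.64), Hspa5 (1.92 ± 0.50), Hyou1 (1.66 ± 0.43), Dnajb11 (1.54 ± 0.33), Pdia4 (1.31 ± 0.31), Pdia6 (1.25 ± 0.33), Dnajc3 (1.19 ± 0.31) and Sec61a1 (0.88 ± 0.19). In zone 2, 3 were called, Creld2 (2.56 ± 0.63), Manf (1.98 ± 0.50) and Dnajb11 (1.37 ± 0.33), where 0.703% of all genes were higher. In zone 3 none was called by limma, where 1.37% of all genes were called in either direction, and 13 members and 12.4% of all genes had an unadjusted p under 0.05. The medians were 0.913, 0.768 and 0.657. The count in zone 1 was 0 without replicate 2 of dpc8 or of dpc16, 1 without replicate 1 of dpc16, 2 without replicate 3 of dpc8 and 3 without replicate 1 of dpc8, where 61 to 78 genes in all were higher, against 164. The count in zone 2 was 13 without replicate 3 of dpc16, where 193 genes in all were higher, and 0 without any other, where 33 to 77 were, against 91 with all libraries. With the fixed effect for the replicate number, shared across stages, the zone 1 calls of Sdf2l1, Pdia6 and Dnajc3 over dpc8 were lost (limma adjusted p = 0.05077, 0.05765 and 0.06206), which left 6. Hyou1 in zone 2 and Manf in zone 3 were then called (limma adjusted p = 0.0411 and 0.04726). With quality weights for the libraries, 18, 20 and 9 members were called over NP in zones 1, 2 and 3, where 416, 575 and 400 genes in all were higher. Over dpc8 the weights gave 23, 22 and 20 members, where 534, 537 and 775 genes in all were higher. Without the 6 libraries with Y-linked reads, 5, 3 and 6 members were called over NP, where 235, 331 and 261 genes in all were higher, and 16, 10 and 7 over dpc8, where 304, 271 and 256 were.

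**Figure D5:**
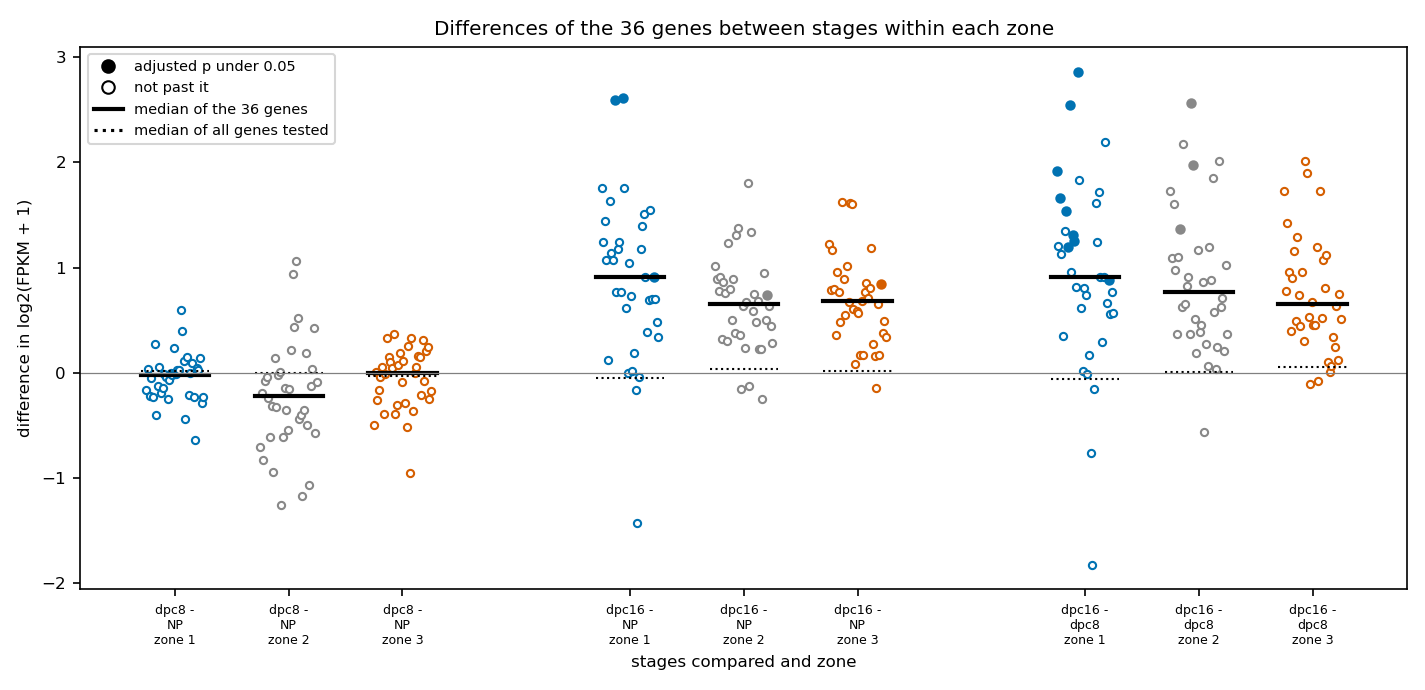
Log2 differences in FPKM + 1 of the 36 members (points) in each zone for dpc8 against NP, dpc16 against NP and dpc16 against dpc8, with the median of the members (solid line) and of all genes tested (dotted line). The members' medians are 0.655 to 0.908 for dpc16 against NP, 0.657 to 0.913 for dpc16 against dpc8 and -0.218 to 0.00167 for dpc8 against NP.

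At dpc8 no member passed the test in either direction. None of the 36 was called by limma between dpc8 and NP in zone 1, 2 or 3, where 0.0309%, 0.00772% and 0.0154% of all genes were called, or averaged over zones, where 0.108% were. The median log2 difference of the members was -0.0744 averaged over zones, and 1 member, Dnajb11 at -0.47 ± 0.19, had an unadjusted p under 0.05 there (limma adjusted p = 0.70), beside 6.11% of all genes, as did 0, 1 and 0 members in zones 1, 2 and 3, beside 3.13%, 5.06% and 2.74% of all genes. The spread at NP was the wider for the genes with the largest later rise: Creld2 reached 69.7 FPKM at NP and 20.1 at dpc8, Syvn1 74.8 and 23.0, and Sdf2l1 56.3 and 22.1, and these NP values were all in replicate 3 of zone 2.

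Along the lobule, the fitted difference of zone 1 from zone 3 was above 0 for 31 of the 36 members at dpc16 and for 48.3% of all genes, with a median of 0.572 on the log2 scale, but none was called. No member was called by limma at NP, dpc8 or dpc16, where 1.34%, 1.61% and 1.55% of all genes were, and 3, 1 and 8 members had an unadjusted p under 0.05, beside 8.02%, 12.2% and 7.86% of all genes. At dpc16 these 8 were Derl2, Sec61a1, P4hb, Pdia6, Dnajc3, Sec61b, Derl3 and Edem1. Sec61a1 at dpc16 was 124, 154 and 143 FPKM in zone 1, 139, 169.9 and 86.2 in zone 2 and 94.7, 100.4 and 107 in zone 3, so that zones 1 and 3 did not overlap and the middle zone spanned both.

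Averaged over stages the median was 0.32, 11 members and 15.4% of all genes had an unadjusted p under 0.05, and none was called by limma, where 5.59% of all genes were. The nearest were Sec61a1 at 0.37 ± 0.11 and Pdia6 at 0.62 ± 0.19 (limma adjusted p = 0.0559 and 0.0597). With a fixed effect for the replicate number within each stage, 6 members were called. Hyou1, Pdia6, P4hb, Manf and Sec61a1 were higher in zone 1 and Selenos was lower, where 4.02% and 4.08% of all genes were higher and lower. Under the other settings the count was 0 to 6, and that of all genes moved too: array weights called 5 members beside 1450 genes in all and the connective tissue covariate 6 beside 1068, against 724 genes in the fit above. Whether the change from NP differed between zones 1 and 3 was tested directly: no member was called for dpc8, where 0% of all genes were and 0 members had an unadjusted p under 0.05, or for dpc16, where 0.054% were and 1 member, Derl2 at 0.83, and 3.16% of all genes had an unadjusted p under 0.05. For the change from NP, the larger number of calls in zone 1 than in zone 3 is therefore not shown to be a difference between the zones. The change from dpc8 to dpc16, with 9 members called in zone 1 and 0 in zone 3, was not tested in this way.

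A list of 122 other genes of the pathway, of which 121 were tested, was described in the same way. Over NP 42 were higher and 1 was lower, and over dpc8 34 were higher and 2 lower, where 5.65% and 5.37% of all genes were higher. Their median log2 differences were 0.356 and 0.306, beside 0.749 and 0.777 for the 36 members. Between dpc8 and NP none was called. In signal peptide recognition and translocation, 13 of 21 genes were higher over NP and 8 over dpc8, and in N-glycosylation 8 and 4 of 15. Folding and disulfide formation had 7 and 6 of 20, ER-associated degradation 5 and 6 of 16, the COPII coat and cargo receptors 6 and 7 of 22, and stress transducers with the integrated stress response 3 and 3 of 27. Those called lower were Tmx2, a membrane-bound thioredoxin relative, in both (-0.81 ± 0.16 and -0.51 ± 0.16), and Vldlr, a lipoprotein receptor that ATF4 can raise, over dpc8 (-1.28 ± 0.31).

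The largest rises among these other genes were in the stress transducer list. Cars, the cysteine tRNA synthetase, ranged from 9.31 to 29.8 FPKM (median 17.98) at NP, 9.55 to 32.0 (median 18.4) at dpc8 and 43.6 to 89.8 (median 61.0) at dpc16, clear of both other stages. It differed by 1.75 ± 0.21 and 1.598 ± 0.21 (limma adjusted p = 4.123e-06 and 1.688e-05). Creb3l2, an ER-bound transcription factor cut in the manner of ATF6, ranged from 4.36 to 8.41 FPKM (median 6.17) at NP, 4.68 to 13.1 (median 7.11) at dpc8 and 13.0 to 37.8 (median 17.95) at dpc16, clear of NP and touching dpc8. It differed by 1.58 ± 0.20 and 1.27 ± 0.20 (limma adjusted p = 1.132e-05 and 0.0001661).

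Fgf21, a liver hormone that ATF4 can raise, ranged from 0 to 2.34 FPKM (median 0.425) at NP, 0 to 0.956 (median 0.443) at dpc8 and 0.16 to 35.9 (median 14.9) at dpc16. Its differences of 2.59 ± 0.62 and 2.77 ± 0.62 (limma adjusted p = 0.00719 and 0.004733) depend on the 1 added to each value, since NP and dpc8 were near 0. Outside that list, Txndc11, a thioredoxin-domain protein of the ER, differed by 1.17 ± 0.20 and 1.21 ± 0.20, and Sec61g, the third subunit of the Sec61 channel, by 0.99 ± 0.21 over NP and 0.60 ± 0.21 over dpc8, the last not called (limma adjusted p = 0.06801).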

How the data were processed

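Gene FPKM for 27 libraries of 3 stages and 3 zones were used as deposited. The authors trimmed reads with cutadapt, aligned them to mm10 with HISAT2 2.1.0 and computed FPKM with Cufflinks 2.2.1 and Cuffdiff, per the submitters' processing notes. FPKM hold no read counts, so no count test was run. Depth was estimated from whole-read steps among low values: 92.1 to 99.3% of those values fell on a step within 0.05.

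limma 3.58.1 (R 4.3.3, empirical Bayes with trend and robust settings) was fitted to log2(FPKM + 1) with a mean for each of the 9 groups, over the 12952 genes reaching 1 FPKM in 3 or more libraries. Fold changes are on this scale and understate the change of low genes. Benjamini-Hochberg adjustment was made within each comparison over all genes, and an adjusted p under 0.05 was a call. The script was tested on simulated data. The main fit did not pair libraries by the numbers of the labels. Deviations of same-numbered libraries correlated above 0.1 between all zones at dpc16 (9 of 9, median 0.358), not at NP (4 of 9) or dpc8 (5 of 9). The replicate block took in all 3 stages regardless. For comparisons averaged over zones, and for stage changes compared between zones, it used a shared correlation of 0.193. Within 1 zone it was a fixed effect of the number, shared across stages, though stages do not share mice. For zone 1 against zone 3 it was a fixed effect of the number within each stage. No 2 libraries were identical, and replicates correlated at 0.789 to 0.976.

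The members, roles, marker lists and other pathway lists were chosen with earlier results of these data known. Values in every stage were given for up to 12 members called in any comparison, in the order of their largest difference, and for the highest member of each role. Alternatives tried are given at the end. Promoter windows are RefSeq's, and gene positions are from GENCODE on GRCm38.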

Additional observations from a re-analysis of the deposited data

How the results depend on the processing

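Of 1560 values of called members under an alternative, 1329 kept their direction and call, 231 kept their direction only and 0 reversed. Members not called, such as Derl1, whose sign over dpc8 turned after rescaling, were not among these values. Of the members called over the mean of zones, 10 of 22 against NP and 14 of 24 against dpc8 were called under each of the 10 alternative settings, and 17 and 20 in every fit that left out 1 library. With every library rescaled to the same FPKM sum, 10 members were called over NP, where 268 genes in all were higher, against 732. Leaving out 1 library at a time, or the 6 with Y-linked reads, gave 17 to 25 over NP and 20 to 28 over dpc8, where genes higher in all numbered 569 to 1106 and 531 to 1227. In zones 1, 2 and 3 the same omissions gave 0 to 7, 0 to 3 and 0 to 6 over NP and 0 to 16, 0 to 13 and 0 to 7 over dpc8. Over NP in zones 1, 2 and 3, rescaling gave 1, 0 and 0, only the groups compared 0, 0 and 0, and array weights 18, 20 and 9, where 80, 100 and 98, 43, 5 and 26, and 416, 575 and 400 genes in all were higher, against 129, 132 and 97. With no filter zone 1 gave 1 of 122 genes higher in all, and with a connective tissue covariate zone 3 gave 2 of 222. Over dpc8, only the groups compared gave 1, 0 and 1 and array weights 23, 22 and 20, where 78, 0 and 61, and 534, 537 and 775 genes in all were higher, against 164, 91 and 76. There, rescaling gave 2 in zone 1 and 2 in zone 3, no filter 4 in zone 1 and 0 in zone 2, quantile normalization 4 in zone 1 and 1 in zone 3, the connective tissue covariate 9 in zone 2 and 6 in zone 3, and the replicate block 1 in zone 3. In the same order, genes higher in all numbered 98 and 92, 142 and 83, 148 and 68, 315 and 212, and 100. Zone 1 against zone 3, averaged over stages, gave 1 with no filter or rescaling, 2 with only the groups compared, 3 with quantile normalization and 5 with array weights. It gave 6 with the block or the covariate, and 0 to 3 without single libraries or the 6. In the same order, genes called in all numbered 779 and 835, 751, 672, 1450, 1049 and 1068, and 573 to 752 and 1060, against 724. At dpc16 zone 1 against zone 3 gave 1 with array weights and 1 with the covariate, where 496 and 325 genes in all were called, against 201. At NP it gave 1 with the covariate, where 285 were, against 173. The cause of these changes was not tested. The replicate block left 16 and 19 calls over the mean of zones and changed no call between dpc8 and NP. Precision was limited by 3 libraries a group and, for members under about 5 FPKM, by the added 1.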
